A study of Mus musculus with 4 samples.

Results

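Lineages that were still detectable, but rare, after repeated eribulin treatment were followed by their DNA barcodes in PB3, a cell line from a mouse mammary tumor. The 17 barcodes described here were chosen by the number of treated cells that carried them: each was called as the single barcode of 1 to 9 nuclei in the eribulin multiome library. They made up 17 of the 27 barcodes called in that library and 17 of the 490 called in the series, and they marked 39 of its 1391 nuclei with a single called barcode (2.80%, 95% interval 2.00 to 3.81). Because those counts defined the set, the eribulin shares below are a description. Untreated cells, clusters, depth and nucleosome signal were not used to choose the barcodes.

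The multiome libraries of run 3 were compared, 1 library each of untreated PB3 cells and of PB3 cells given 500 nM eribulin for 72 h and left for 48 h to recover, in 4 rounds. Chromatin accessibility in the nuclei was read from Tn5 cut sites in peaks. The untreated library held 9583 nuclei, of which 4772 had a single called barcode, and the eribulin library held 8114. These libraries had 61629245 and 49446970 cut sites in peaks, with medians of 5217 and 4229.5 per nucleus. With 1 library per condition there was no test between them and no replicate spread. Intervals are exact 95% binomial (Clopper-Pearson) intervals, or exact order-statistic intervals for a median, and cover counting error only. Cells of a lineage share their ancestor and their library and are not replicates of a condition. Single-cell ATAC libraries of both conditions from run 1 were used as a further look at the same barcodes.

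Eribulin binds the ends of microtubules and stops their growth, which arrests dividing cells in mitosis. A lentiviral barcode is a synthetic DNA tag that integrates into the genome of an infected cell and is passed to its descendants, so that cells with the same barcode form a lineage. Comparing barcodes before and after a drug shows which lineages remain, and the accessibility of the same cells shows in which chromatin state they are.

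Each barcode joins a short part of 14 bases, the fixed linker TGGT at bases 15 to 18 and a long part of 30 bases. A barcode is named by the numbers of its short and long part. The sequences shown are those of the lineages on which the results turn, taken from the deposited barcode list: 8 barcodes with eribulin nuclei in clusters typical of untreated cells, the 2 barcodes 29-33048 and 48-9246 that had a higher share after eribulin and no such nuclei, and 51-21431, which shares its short part with 51-38039. Capitals mark the short part, and all are written 5′ to 3′ as in the list.
1-96229: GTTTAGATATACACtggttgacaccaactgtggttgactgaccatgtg
13-72181: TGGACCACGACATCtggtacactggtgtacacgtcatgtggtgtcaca
43-75462: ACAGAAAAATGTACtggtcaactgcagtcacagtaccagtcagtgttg
51-38039: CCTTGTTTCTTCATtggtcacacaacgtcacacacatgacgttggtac
51-21431: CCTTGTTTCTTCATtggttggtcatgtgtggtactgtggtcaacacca
54-69483: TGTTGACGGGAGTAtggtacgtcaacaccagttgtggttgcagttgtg
69-34430: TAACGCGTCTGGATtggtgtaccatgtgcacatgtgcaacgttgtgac
80-66251: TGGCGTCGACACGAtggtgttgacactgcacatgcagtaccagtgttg
71-88522: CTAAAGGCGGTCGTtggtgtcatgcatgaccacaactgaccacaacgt
29-33048: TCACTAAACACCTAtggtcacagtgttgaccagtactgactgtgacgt
48-9246: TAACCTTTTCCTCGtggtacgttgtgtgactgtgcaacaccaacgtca

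The 17 sequences were well separated. The nearest other barcode seen in the series differed from each by 14 to 23 of the 48 bases (median 16), where the median distance to the nearest over all 490 barcodes was 18. From each other barcode called in the eribulin multiome library they differed by at least 23 bases. The pair 51-38039 and 51-21431, with the same short part, differed at 26 bases of the long part. No long part of the 17 occurred in another barcode seen. The short parts held 4 to 11 G or C among 14 bases (median 6, against 7 over all barcodes seen). All 490 long parts held exactly 15 G or C among 30 bases, so base composition could differ through the short part alone. The 5 barcodes 29-33048, 29-67687, 51-38039, 51-21431 and 95-65716 shared their short part with another barcode of the eribulin library.

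All 17 lineages were found in the untreated multiome library, where together they had 444 of the 4772 called nuclei (9.30%, 8.49 to 10.2). Their eribulin share of 2.80% was 0.301 times that value (exact interval of the ratio 0.211 to 0.419). The lineages ranged from 1 to 83 untreated nuclei, with a median of 20, whereas the median over the 484 barcodes of that library was 3. Of the 125 barcodes with at least 10 untreated nuclei, 13 were among the 17 (10.4%, 5.65 to 17.1), as were 4 of the 359 barcodes with fewer (1.11%, 0.304 to 2.83). A large lineage is also more readily caught in a few nuclei of a second sample, and the part of lineage size in this difference was not tested.

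In 14 of the 17 lineages the eribulin share was below the untreated one. The bound of 9 eribulin nuclei (0.647%) fixes this direction in advance for a lineage with a larger untreated share, which 5 of the 14 had. It also limits the pooled ratio, so all these ratios are a description and their intervals give counting error alone. The 7 largest of these 14 without treatment were 95-65716, 92-83570, 75-79440, 51-21431, 13-72181, 51-38039 and 69-34430, with 83, 67, 58, 41, 31, 30 and 28 untreated nuclei. Lineage 95-65716, the fifth most frequent of the untreated library with 1.74% (1.39 to 2.15), had 2 eribulin nuclei, a ratio of 0.0827 (0.00985 to 0.308). Lineage 92-83570, with 1.40% (1.09 to 1.78) of the untreated nuclei, had 1 eribulin nucleus, a ratio of 0.0512 (0.00128 to 0.295). Lineage 75-79440, with 1.22% (0.924 to 1.57) untreated, had 3 eribulin nuclei, a ratio of 0.177 (0.0356 to 0.545). A share lower by at least 2-fold was the rule among frequent lineages: it was found for 95.2% of the 125 barcodes with at least 10 untreated nuclei and for 12 of the 13 among the rare set, a contrast that the choice of the set had already used. Of the 125, 18 had any eribulin nucleus, and the others were counted as lower with a share of 0. At a limit of 3 counts (0.216%), a lineage with 20 untreated nuclei (0.419%) would not have been counted. A share higher by at least 2-fold was found for 2.4% of the 125 and for 0 of the 13.

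The other 7 of these 14 lineages had fewer untreated nuclei. Lineages 43-75462 and 29-67687 had 20 untreated nuclei each (0.419%), 37-24227 had 18 (0.377%), 1-96229 had 14 (0.293%), 54-69483 had 12 (0.251%), 38-7217 had 10 (0.210%) and 80-66251 had 6 (0.126%). They had 1 or 2 eribulin nuclei each, and 1 nucleus was 0.0719% of the called eribulin nuclei. Their ratios ran from 0.172 (0.00414 to 1.07) in 29-67687 to 0.572 in 54-69483 (0.0622 to 2.57) and 80-66251 (0.0124 to 4.71). All 7 intervals included 1, so counting error leaves the direction of these lineages unsettled.

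Lineages 71-88522, 29-33048 and 48-9246 had a higher share after eribulin. The lower bound of 1 eribulin nucleus (0.0719%) fixes this direction in advance for a lineage with 3 or fewer untreated nuclei. All 3 were of that size, so their direction is a description. Lineage 71-88522 had 3 untreated nuclei (0.0629%, 0.0130 to 0.184) and 9 eribulin nuclei (0.647%, 0.296 to 1.22), a ratio of 10.3 (2.57 to 59.1). Lineage 29-33048 had 1 untreated and 6 eribulin nuclei, a ratio of 20.6 (2.50 to 947). Lineage 48-9246 had 2 of each, a ratio of 3.43 (0.249 to 47.3). These 3 lineages together had 6 untreated and 17 eribulin nuclei, so that 17 of the 39 eribulin nuclei came from lineages hardly seen without treatment. Just inside the upper bound of the set stood 71-88522 with 9 eribulin nuclei, and just outside it 55-37135 with 11 and 55-99383 with 12. No barcode had 10.

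Without treatment, lineages of the set had most of their nuclei in a single chromatin cluster, as did frequent barcodes in general. All 13 lineages with at least 10 untreated nuclei had over 50% of them in 1 of the authors' clusters, beside 85.6% of the 125 barcodes of that size, so the set was near the background. Their share in the main cluster had a median of 75.6%, from 12 of 20 nuclei in 43-75462 to 9 of 10 in 38-7217, against 69.2% over the 125. The main cluster was cluster 2 for 6 of the 13 (56 of the 125), cluster 8 for 3 (16 of 125), cluster 9 for 2 (10 of 125), cluster 6 for 1 (14 of 125) and cluster 3 for 1 (24 of 125). Each lineage's main cluster was picked on the same nuclei, which raises its share where nuclei are few.

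Cluster 2 was the base of lineages 95-65716 (66 of 83 nuclei, 79.5%, 69.2 to 87.6), 75-79440 (45 of 58), 13-72181 (23 of 31), 1-96229 (11 of 14), 37-24227 (11 of 18) and 54-69483 (10 of 12). Cluster 8 was the base of 51-21431 (31 of 41 nuclei, 75.6%, 59.7 to 87.6), 51-38039 (20 of 30) and 29-67687 (15 of 20). The 2 lineages with the short part 51 had the same base, and their long parts differed at 26 bases. The 2 with the short part 29 did not share a base. Lineage 29-67687 was based in cluster 8, and the single untreated nucleus of 29-33048 lay in cluster 16. Lineage 95-65716 also differed from the frequent barcode with its short part, which had 4 of 6 untreated nuclei in cluster 3. Cluster 9 was the base of 92-83570 (57 of 67 nuclei, 85.1%, 74.3 to 92.6) and 69-34430 (21 of 28). Lineage 43-75462 had 12 of 20 nuclei in cluster 6, and 38-7217 had 9 of 10 in cluster 3. Among the lineages with fewer nuclei, 80-66251 had 5 of 6 in cluster 2, 71-88522 had 2 of 3 in cluster 3, 48-9246 had both of its nuclei in cluster 8, and the single nucleus of 29-33048 lay in cluster 16.

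Taken over nuclei, the untreated cells of the 17 lineages lay in cluster 2 in 43.9% (39.2 to 48.7), in cluster 9 in 21.4% (17.7 to 25.5) and in cluster 8 in 17.3% (13.9 to 21.2) of cases. Untreated nuclei whose barcode had no eribulin nucleus lay in these clusters in 34.1%, 8.57% and 10.8%. Clusters 3 and 6 held 8.33% and 4.73% of the set and 20.7% and 16.0% of the nuclei of barcodes without an eribulin nucleus. The value for cluster 9 rested on 92-83570: without it, 38 of 377 nuclei (10.1%) lay there. The value for cluster 2 fell to 35.7% without 95-65716. The value for cluster 8 was not recomputed in this way, and 51-21431 gave 31 of the 77 nuclei of the set there.

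After eribulin the 39 nuclei of the set were divided between 2 kinds of cluster. In the multiome libraries 9 of the 17 clusters held more of the eribulin library and 8 (clusters 2, 3, 4, 6, 8, 9, 14 and 16) held more of the untreated library. The latter are called untreated clusters here, and they contained 98.2% of the untreated and 1.57% of the eribulin nuclei. Of the 39 nuclei, 27 lay in eribulin clusters: 22 in cluster 0, 2 in cluster 10, 1 in cluster 11 and 2 in cluster 12. The other 12 (30.8%, 17.0 to 47.6) lay in untreated clusters. Among nuclei of the 10 barcodes with at least 10 eribulin nuclei that share was 1.92% (1.26 to 2.81; 26 of 1352), and among nuclei called negative it was 1.33% (1.07 to 1.63; 88 of 6622). These intervals take nuclei as independent, although nuclei of 1 lineage share their ancestor, and the difference was not tested. Among the 10 frequent barcodes the count in untreated clusters ranged from 0 of 176 nuclei to 4 of 12. Those with the fewest eribulin nuclei, 55-37135 and 55-99383, together had 7 of 23 there (30.4%, 13.2 to 52.9), close to the rare set. With each of the 17 lineages left out in turn, the share in eribulin clusters, 69.2% for all 39 nuclei, stayed between 63.6% and 73.0%.

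At least 1 nucleus in an untreated cluster was found in 8 of the 17 lineages, and in 55.6% of the 27 barcodes of the eribulin library. A barcode with many nuclei reaches such a count more easily. The share per nucleus has a limit of its own, since it divides by the eribulin count that the rule held to at most 9. In counts, the 17 lineages had 12 nuclei in untreated clusters, at most 2 each. The 10 frequent barcodes had 26, at most 8 each. All eribulin nuclei of 5 lineages lay in untreated clusters: both nuclei of 13-72181, 43-75462 and 51-38039, and the single nuclei of 69-34430 and 80-66251. Lineages 1-96229 and 54-69483 had 1 of 2 nuclei there, and 71-88522 had 2 of 9. Thus 10 of the 12 nuclei came from lineages with 1 or 2 eribulin nuclei. The barcode count of every cell is listed at 0, so calls resting on few reads could not be told apart from well supported ones, and 14 of the 17 lineages rest on 1 or 2 such calls.

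Most of the 12 nuclei lay in the main cluster of their own untreated relatives, which does not show nearness to those relatives within the cluster. Both eribulin nuclei of 43-75462 were in cluster 6, where 12 of its 20 untreated nuclei lay and which held 14.7% of the untreated library. Both nuclei of 51-38039 were in cluster 8, the base of 20 of its 30 untreated nuclei, which held 11.7% of that library. The nucleus of 69-34430 was in cluster 9, the base of 21 of its 28 untreated nuclei, which held 11.6%. The nucleus of 80-66251 and 1 nucleus each of 1-96229 and 13-72181 were in cluster 2, the base of all 3 lineages, which held 34.6%. The second nucleus of 13-72181 and 1 of 54-69483, also based in cluster 2, were in cluster 4, which held 0.960% of the untreated multiome library. Neither lineage had an untreated multiome nucleus in cluster 4. Clusters 2 and 4 are taken as 1 here because they were the largest untreated clusters of the 2 runs: cluster 4 held 31.2% of the untreated cells in run 1, where cluster 2 held 1.35%. This pooling was known from earlier results on these data. With them apart, 9 of the 12 nuclei were in the main cluster of their lineage, and with them taken as 1, 11 were. The exception with both clusters taken as 1 was a nucleus of 71-88522 in cluster 2. Another nucleus of 71-88522 was in cluster 3, the place of 2 of its 3 untreated nuclei.

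The lineages were then divided by the direction of their share. The 14 lineages with a lower share after eribulin had 22 eribulin nuclei, of which 10 (45.5%, 24.4 to 67.8) lay in untreated clusters and 12 in eribulin clusters. Of these 10 nuclei, 8 were in the main untreated cluster of their lineage with clusters 2 and 4 apart. With clusters 2 and 4 taken as 1, all 10 were. The 3 lineages with a higher share had 17 eribulin nuclei, of which 2 (11.8%, 1.46 to 36.4) lay in untreated clusters. The division itself uses the eribulin counts that chose the set, and the difference between both kinds of lineage was not tested. Both nuclei of 71-88522 in untreated clusters were the shallowest of the 39, with 1365 and 1438 cut sites. Of the 2 barcodes just above the bound, 55-37135, with a ratio of eribulin to untreated share of 0.662, had 3 of 11 eribulin nuclei in untreated clusters, and 55-99383, with a ratio of 1.14, had 4 of 12. All 7 were in cluster 2 or 4, cluster 2 being the base of 43 of 57 and 30 of 36 untreated nuclei of these lineages. Together 55-37135 and 55-99383 had 7 of 23 eribulin nuclei in untreated clusters (30.4%, 13.2 to 52.9). The rare set had a similar share of 30.8% (17.0 to 47.6). A high share was thus not limited to barcodes with 1 to 9 eribulin nuclei. All nuclei of 55-37135 and 55-99383 had names with the sequence appended, a form described below that 9 of the 39 rare nuclei had. The part of this form in the comparison was not tested. Without 55-37135 and 55-99383, the share in untreated clusters among the remaining frequent barcodes was 1.43% (0.863 to 2.22, 19 of 1329). For the 10 frequent barcodes, 21 of the 26 nuclei in untreated clusters had a lineage seen without treatment. Of these 21, 13 were in the main cluster of their lineage, or 14 with clusters 2 and 4 taken as 1.

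In the eribulin clusters the rare lineages were mostly in cluster 0, the largest of the eribulin multiome library with 78.5% of its nuclei. Of the 27 nuclei, 22 (81.5%, 61.9 to 93.7) were there, compared with 64.4% (61.8 to 67.0) of the nuclei of frequent barcodes in eribulin clusters. Lineage 29-33048 had 5 of its 6 nuclei in cluster 0 and 1 in cluster 11. Lineage 71-88522 had 6 of 9 in cluster 0 and 1 in cluster 10, and 48-9246 had 1 in each of these. Lineage 95-65716 had both nuclei in cluster 0, and 75-79440 had 2 there and 1 in cluster 12. The single nuclei of 37-24227, 38-7217, 51-21431 and 92-83570 were in cluster 0, as were 1 nucleus of 1-96229 and 1 of 54-69483, and that of 29-67687 was in cluster 12. Thus lineages with bases in clusters 2, 3, 8 and 9 without treatment were met in the same eribulin cluster. Cluster 15, which held 4.66% of the nuclei of frequent barcodes, held 0 of the 39, which allows a share of up to 7.69%.

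Neighbours on the deposited UMAP, which also places the cells of run 1, were sought among multiome nuclei alone, of which 54.2% were untreated. Of 39 eribulin nuclei, 10 had mostly untreated nuclei among their 30 nearest neighbours. That was 25.6% (13.0 to 42.1), compared with 6.51% of the nuclei of frequent barcodes and 5.09% of the whole eribulin library. The map comes from the same peak data as the clusters and is not independent of them. Of the 12 nuclei in untreated clusters, 9 had between 23 and 30 untreated neighbours. The other 3, which were the nuclei of 13-72181 and 54-69483 in cluster 4 and 1 nucleus of 51-38039 in cluster 8, had 5, 4 and 5. Most of their nearest multiome nuclei were thus eribulin nuclei. Cells of run 1 were not counted, and cluster 4 held 31.2% of the untreated cells of that run, so their place on the whole map is not shown. Conversely, 1 nucleus of 95-65716 that was assigned to cluster 0 had 30 untreated neighbours. It was deep, with 19623 cut sites. The 30 nearest untreated nuclei with a called barcode were also examined. Of the 12 nuclei in untreated clusters, 1 had a neighbour of its own lineage there, and it had 1. Their lineages had 0.0629% to 0.650% of the called untreated nuclei, so few such neighbours could be met.

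The depth of the 39 nuclei was within the range of their library. Their median was 4758 cut sites in peaks (interval 2974 to 8546, quartiles 2782.5 and 9314.5), beside 5967.5 (5618 to 6385) in nuclei of frequent barcodes and 3914 (3804 to 4031) in negative nuclei. The 12 nuclei in untreated clusters had a median of 4340 (2186 to 9862) and the 27 in eribulin clusters 6612 (2787 to 8915), with intervals that overlap. Among the 12, the deepest was the nucleus of 1-96229 with 16960 cut sites. Those of 43-75462 had 10350 and 4475. The nuclei of 13-72181 had 9862 and 3828, those of 51-38039 had 4205 and 2941, that of 80-66251 had 5095, that of 54-69483 had 4578 and that of 69-34430 had 2186. The highest value of all 39, 82683 cut sites in a nucleus of 75-79440 in cluster 12, was also the highest of the series. The next highest of the set was 19623.

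The nucleosome signal sets fragments that span 1 nucleosome against those too short to span any, and it is low where open DNA dominates the reads. In the 39 nuclei it had a median of 0.659 (0.620 to 0.704), beside 0.668 (0.663 to 0.675) in nuclei of frequent barcodes and 0.669 (0.666 to 0.672) in negative nuclei of the eribulin library. The untreated nuclei of the same 17 lineages had a median of 0.919 (0.904 to 0.937) and the whole untreated library 0.907. Of the 39 eribulin nuclei, 38 lay below the untreated median of their own lineage. The exception was the nucleus of 13-72181 in cluster 2, with 0.936 against a lineage median of 0.919.

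The nuclei in untreated clusters had the low nucleosome signal of the eribulin library. Their median was 0.653 (0.619 to 0.776), close to the 0.659 of the 27 nuclei in eribulin clusters. In 10 of the 12 the value lay between 0.529 and 0.776, below the lower quartile of 0.826 of the untreated nuclei of these lineages. The nuclei of 51-38039 had 0.619 and 0.621 where their lineage had an untreated median of 0.915, that of 80-66251 had 0.529 against 0.943, that of 1-96229 had 0.621 against 0.988 and that of 69-34430 had 0.690 against 0.853. The nuclei of 54-69483 in cluster 4 and 0 had 0.776 and 0.766 against 1.13. The 2 nuclei at the untreated level were that of 13-72181 just named and 1 of 43-75462 with 0.919, against a lineage median of 0.925. The other nucleus of 43-75462 in cluster 6 had 0.690, and the other of 13-72181, in cluster 4, had 0.636. All 127 eribulin nuclei in untreated clusters, with or without a barcode, had a median of 0.654. With 1 library per condition, a shift of the fragment lengths of a whole library cannot be told apart from an effect of the drug. The TSS enrichment, which sets cuts at transcription starts against those in the flanks, had a median of 5.05 (4.75 to 5.36) in the 39 nuclei and of 5.04 in nuclei of frequent barcodes.

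The form in which a barcode was written set 71-88522 apart from the other 16 lineages of the set. In the eribulin library 1019 nuclei had names with hyphens alone and 372 had the sequence appended, and each of these 372 sequences matched the list. All 9 nuclei of 71-88522 carried the sequence, whereas the 30 nuclei of the other 16 lineages were named with hyphens. In the whole eribulin library 5 barcodes occurred with the sequence alone. Among them were 71-88522 and the barcodes just above the bound, 55-37135 and 55-99383. Nuclei named with a sequence lay in untreated clusters in 5.11% of cases and had a median of 7439 cut sites, and those named with hyphens in 1.86% with 5539. The 9 nuclei of 71-88522 were shallow, with a median of 2974 and a highest value of 8546. The part of the naming in these results was not tested.

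The cell barcodes of 123 nuclei occurred in both multiome libraries, which was 1.52% of the eribulin and 1.28% of the untreated nuclei. None of the 39 nuclei was among these 123. In 6 of the 123 a single lineage barcode was called in both libraries, and in 0 of them was it the same.

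The single-cell ATAC libraries of run 1, which the choice did not use, had few barcode calls. None of the 17 lineages was among the 84 eribulin cells with a single called barcode, which allows a share of up to 3.57%, above their 2.80% in the multiome library. In the untreated library 3 of the 29 called cells (10.3%, 2.19 to 27.4) carried 1 each of 29-67687, 92-83570 and 95-65716, where the multiome share of the set was 9.30%.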

How the data were processed

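Per the series' design text, the authors processed run 3 with cellranger-arc and run 1 with cellranger-atac on mm10 and used Signac, given as version 1.1.1 in the submitters' processing notes. The methods of barcode calling and library integration are not given in the sources used here. The deposited counts are raw Tn5 cut sites in peaks per cell. The deposited nucleosome signal and TSS enrichment are ratios per cell, named per the file headers. The deposited UMAP coordinates are a unitless score.

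Barcode names were reduced to their short and long part numbers. Nuclei called negative, doublet (56 eribulin, 669 untreated), multiplet (6 and 196) or unmapped (39 and 56) were left out of barcode shares. The deposited barcode count columns are 0 in every cell, so weak calls could not be separated from well supported ones. Shares, medians, neighbours and base differences were computed with Python 3.11.15, pandas 2.3.3, numpy 2.4.6 and scipy 1.17.1, and the functions were tested on simulated data. No test was made, since each group is 1 library. A count of 0 was given the limit of 3 counts, except in the count of 2-fold lower shares, where it was taken as 0. The lineages and measures were chosen with earlier results of these data known. All members are named; other barcodes are named where they have 10 to 19 eribulin nuclei and bear on the upper bound. No gene or peak was analysed.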

Additional observations from a re-analysis of the deposited data

How the results depend on the processing

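Of 37 alternative values computed, 33 stayed within the interval of the reported value, or within 1.5 times a reported count. The 4 that did not all concerned the pooled untreated share of 9.30%. It was 5.32% with the 10 lineages of 2 to 9 eribulin nuclei, 7.56% without 95-65716 and 4.63% with all untreated nuclei as the denominator. With nuclei named with a sequence alone it was 0.0629%, because 71-88522 was then the sole barcode in the range of 1 to 9. The share of the 39 nuclei in eribulin clusters, 69.2%, ranged from 58.3% with lineages of 1 to 4 eribulin nuclei to 77.8% with nuclei named with a sequence. The median depth ranged from 2974 to 6713 cut sites and the median nucleosome signal from 0.647 to 0.670. Leaving out each lineage in turn was added after seeing the data. No paired analysis was possible because each group is 1 library. With 39 nuclei, and 1 or 2 for 14 of the 17 lineages, statements on a single lineage rest on counts that leave wide intervals.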

Other observations

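Nuclei with a called barcode were more common among the eribulin nuclei in untreated clusters than in the library as a whole. A single barcode was called in 38 of these 127 nuclei (29.9%), compared with 17.1% of the eribulin library and 49.8% of the untreated one. The rare lineages had 12 of the 38 (31.6%, 17.5 to 48.7), although they had 2.80% of the called eribulin nuclei, a share that the rule itself had limited. The 38 nuclei belonged to 15 of the 27 barcodes of the library.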
